A study of Mus musculus with 2 samples.

Results

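The messages described here encode the initiation and elongation factors of cytoplasmic translation and the enzymes named after them. They were taken as all autosomal protein-coding genes of the GENCODE M21 annotation whose symbol starts with Eif and a digit from 1 to 6, or with Eef and 1 or 2. This gave 65 genes among the 55536 genes of each table, of which 20807 are autosomal and protein coding. The same symbol rule also matched 3 genes on the sex chromosomes (Eif1ax, Eif2s3x and Eif2s3y), 10 pseudogenes and 1 long non-coding gene, which are not members. The 65 genes were read in 13 groups by complex or function.

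Initiation factors bring the small ribosomal subunit with its charged initiator tRNA to the cap of a message and help it find the start codon. Elongation factors then deliver each charged tRNA to the ribosome and move the ribosome along the message. Developing muscle is known for an exchange of paralogs at the elongation step: eEF1A1, the form of most embryonic and dividing cells, gives way after birth to eEF1A2 in heart muscle, skeletal muscle and neurons.

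The study sequenced polyA RNA, which its labels describe as primed with oligo-dT from total RNA, of whole hearts of mouse embryos at embryonic day 12.5, with no second condition. Its 2 libraries are labelled biological replicates of strain B6NCrl, each from male and female embryos pooled. Per the labels, each library started from 10 ng of RNA, received ERCC spike-ins (synthetic RNAs) at 1000 times a single-cell amount, and was fragmented by Nextera tagmentation. The labels give both libraries 1 donor identifier but separate biosamples, so differences between these 2 samples may be technical. P-values of the exact binomial test below cover counting error only and do not measure spread between samples.

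Counts on genes summed to 34248993 in replicate 1 and 31394912 in replicate 2, and ERCC spike-ins took 3.58% and 3.63% of all counts. Variation between the libraries beyond counting error was 4.56% (biological coefficient of variation, edgeR, 17160 genes) and they were treated as separate samples. All 8 heart muscle markers were detected, which means a TPM (a transcript level scaled by length and by the library's total) of at least 1 in both libraries. They summed to 30656 TPM (replicate 1) and 30816 TPM (replicate 2), so the messages of the labelled tissue were present. Red-cell markers (6 of 6 detected) summed to 32434 and 29092 TPM, and all 9 hepatocyte markers were lower in replicate 2, with summed levels of 175 and 37.5 TPM. In whole tissue, fewer cells of a type and less RNA per cell cannot be told apart.

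Several members are one of a pair of similar genes, and the reads can tell them apart only where their sequences differ. The first 60 coding bases of the pairs with the largest ratios and of a close pair are printed in mm10 sense orientation from the reference transcripts, with the bases that differ between the pair in capitals. Eef1a1 (ENSMUSG00000037742, chromosome 9, 78478449 to 78489151, minus strand) and Eef1a2 (ENSMUSG00000016349, chromosome 2, 181147653 to 181157014, minus strand) encode the delivery factor eEF1A and differ at 11 of these bases.
Eef1a1: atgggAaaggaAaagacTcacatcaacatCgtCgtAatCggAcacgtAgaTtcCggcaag
Eef1a2: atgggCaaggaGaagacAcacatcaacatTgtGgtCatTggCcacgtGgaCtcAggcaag

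Over the whole coding sequence, Eef1a1 and Eef1a2 were identical at 80.1% of 1386 aligned bases. The longest run shared by their main transcripts was 23 bases, against a fragment length of 100 bases implied by the deposited effective lengths, so no fragment of that length matches both of these transcripts exactly. Eif5a (ENSMUSG00000078812, chromosome 11, 69916714 to 69921958, minus strand) and Eif5a2 (ENSMUSG00000050192, chromosome 3, 28781276 to 28798846, plus strand) encode the elongation and termination helper eIF5A. They differ at 17 of the first 60 coding bases and were identical at 73.2% of 459 aligned bases.
Eif5a: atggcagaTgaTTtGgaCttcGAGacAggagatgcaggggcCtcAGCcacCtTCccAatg
Eif5a2: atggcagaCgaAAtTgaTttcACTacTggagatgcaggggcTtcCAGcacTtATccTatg

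Eif1 (ENSMUSG00000035530, chromosome 11, 100319885 to 100322096, plus strand) and Eif1b (ENSMUSG00000006941, chromosome 9, 120492232 to 120495330, plus strand) encode the start-codon scanning factor eIF1. They differ at 5 of these bases and were identical at 81.1% of 339 aligned bases, with a longest shared run of 25 bases.
Eif1: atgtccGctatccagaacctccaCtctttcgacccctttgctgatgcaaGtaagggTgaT
Eif1b: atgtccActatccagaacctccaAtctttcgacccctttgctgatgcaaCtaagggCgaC

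The pair Eif3j1 and Eif3j2 is the exception. Their coding sequences were identical at 100% of 783 aligned bases and their transcripts shared a run of 1107 bases. How reads were divided between them is uncertain. The annotated coding sequence of Eif4g2 (ENSMUSG00000005610, chromosome 7, 111067750 to 111083030, minus strand), a cap-independent relative of eIF4G, opens with GTG, in capitals, whereas 20 of the 21 genes compared in pairs open with ATG.
Eif4g2: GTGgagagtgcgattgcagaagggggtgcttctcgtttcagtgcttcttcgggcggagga

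Nearly all of the factor genes were expressed in the embryonic heart, and most at high levels. Of the 65 members, 63 were detected (96.9%), against 57.8% of the 20807 autosomal protein-coding genes. Their median level was 62.8 TPM (replicate 1) and 62.7 TPM (replicate 2), and that of autosomal protein-coding genes was 3.68 TPM in both. In both libraries 57 members had at least 10 TPM, 28 at least 100 and 3 at least 1000.

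The members summed to 10792 and 10914 TPM in replicates 1 and 2 (10853 ± 86.0 TPM, SD, n = 2). They held 1.26% of gene counts in replicate 1 (95% Clopper-Pearson interval 1.257 to 1.265%) and 1.27% in replicate 2 (1.264 to 1.272%). Intervals of this kind cover counting error only. The 4 highest members, Eef1a1, Eif1, Eif5a and Eif4g2, made up 46.7% and 46.5% of the summed level.

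**Figure D1:**
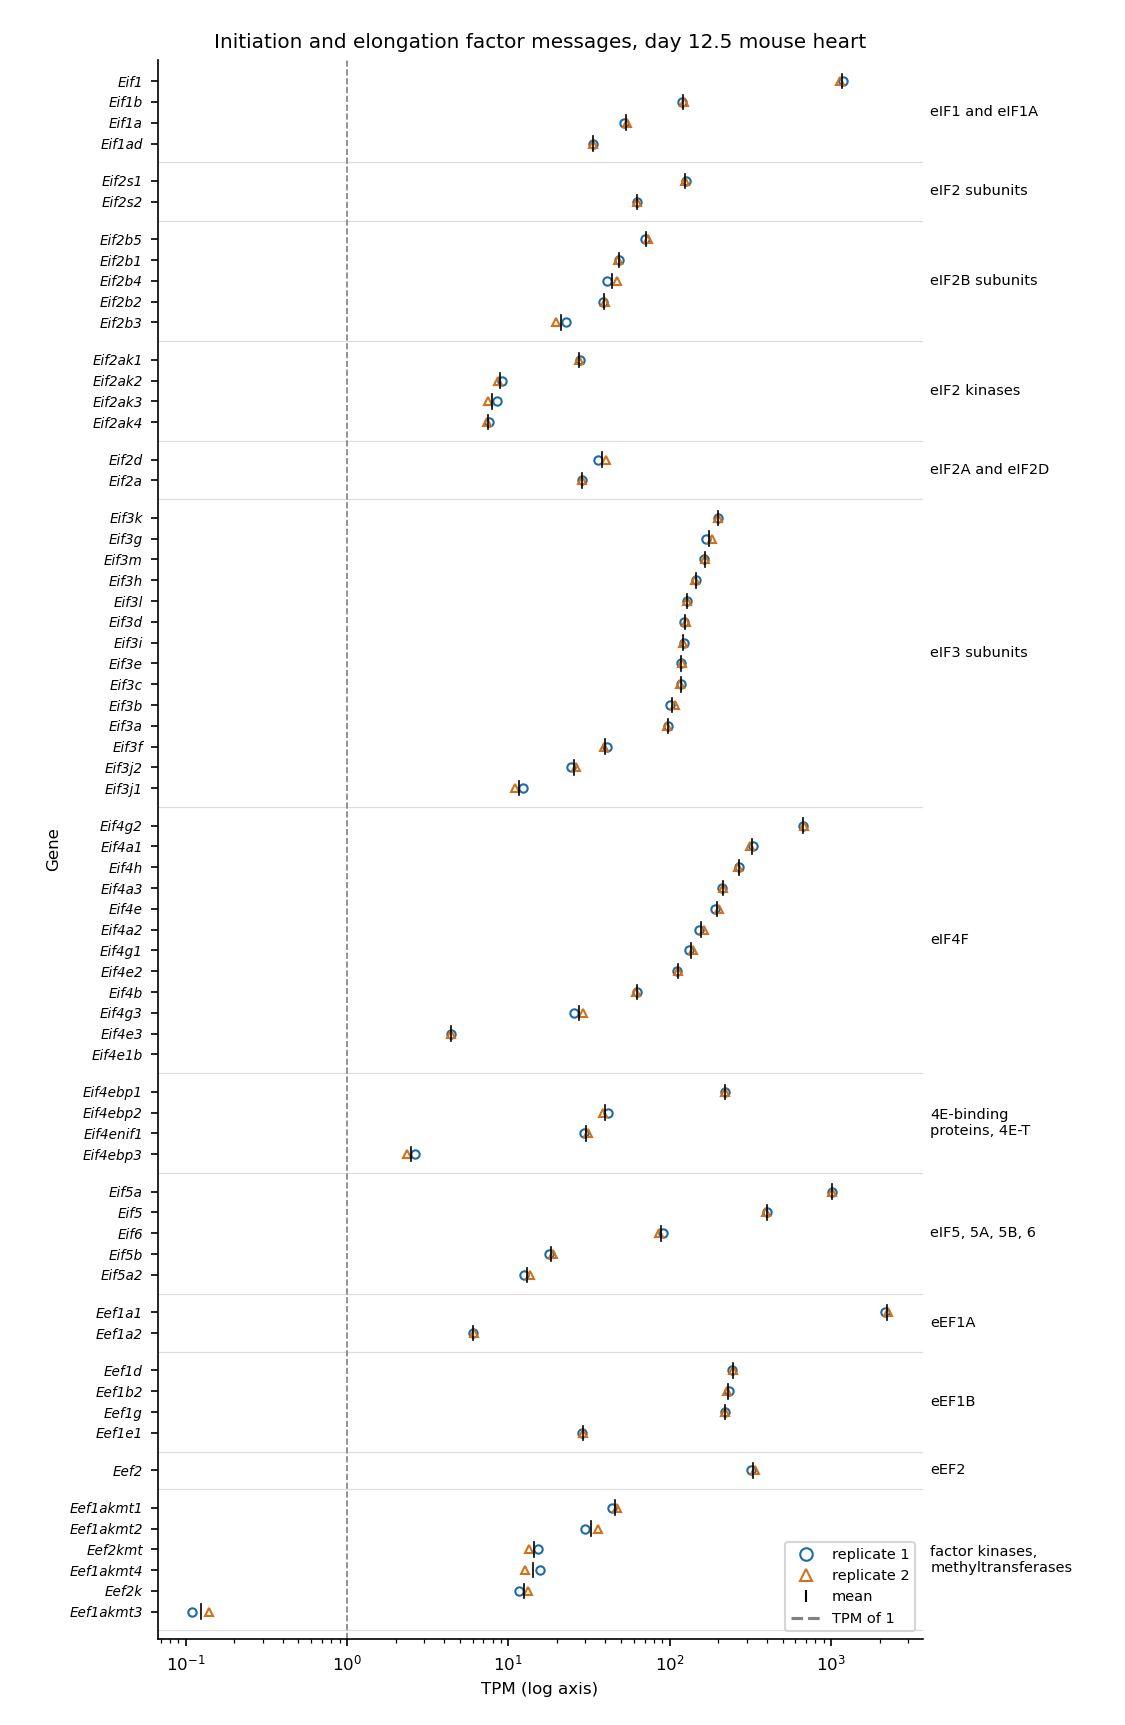
Level of each member in TPM (log axis) by group, with circles for replicate 1, triangles for replicate 2, a short vertical line for their mean and a dashed line at a TPM of 1. The members run from 0.125 TPM for Eef1akmt3 to 2207 TPM for Eef1a1, and the libraries nearly coincide for most genes; Eif4e1b, at 0 in both, cannot be drawn on a log axis.

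Among the factors that scan for the start codon, Eif1 was the second highest member of all. It stood at 1191 TPM (replicate 1) and 1142 TPM (replicate 2), rank 59 of the 20807 autosomal protein-coding genes. Its paralog Eif1b stood at 119.5 and 122 TPM. In both libraries Eif1 was about an order of magnitude above Eif1b, with a log2 ratio of 3.26 ± 0.07 (SD, n = 2; each TPM plus 0.5). The level, rank and ratio of Eif1 count all its annotated transcripts. Coding ones held 34.1% and 34.9% of its TPM, against 100% of that of Eif1b. A processed transcript of 383 bases, Eif1-202, held 45.4% and 45.3% of the TPM of Eif1.

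eIF1A works beside eIF1 on the scanning ribosome, and its autosomal gene was not the higher copy. Eif1a stood at 52.4 and 54.7 TPM, and its X-linked counterpart Eif1ax, which is outside the rule, at 78.9 and 81.5 TPM. The log2 ratio of Eif1a to Eif1ax was -0.58 ± 0.01 (SD, n = 2). Eif1ad, which encodes a protein with an eIF1A-like domain, was the lowest of the group at 33.5 TPM in both libraries.

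eIF2 carries the initiator tRNA, and eIF2B reloads eIF2 with GTP. Eif2s1, the alpha subunit that stress kinases phosphorylate, stood at 126 and 124 TPM, and Eif2s2, the beta subunit, at 62.3 and 62.7 TPM. On M21, Eif2s1 exceeded Eif2s2 2.01-fold and 1.98-fold in TPM, but on the older M4 annotation only 1.13-fold and 1.15-fold. On M21, Eif2s1-203, a processed transcript of 433 bases, held 47.5% and 45.2% of the TPM of Eif2s1. The gamma subunit genes lie on X and Y: Eif2s3x stood at 48.5 and 53.0 TPM and Eif2s3y at 28.1 and 25.7 TPM in these pools of both sexes.

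All 5 eIF2B genes were detected, at a summed level of 220.6 and 228 TPM. Eif2b5, the catalytic epsilon subunit, was highest at 70.1 and 73.5 TPM, and Eif2b3, the gamma subunit, lowest at 22.9 and 19.6 TPM. The other subunits lay between these in both libraries. The 2 members named eIF2A and eIF2D, which bind initiator tRNA or ribosomes outside the eIF2 complex, stood at 28.6 and 28.8 TPM (Eif2a) and 35.8 and 40.4 TPM (Eif2d).

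The kinases of eIF2 alpha, which lower initiation under stress, were the least abundant group in sum, at 53.0 and 50.8 TPM. Eif2ak1, the heme-regulated kinase of red cells, led at 27.7 and 27.3 TPM. Red-cell markers were abundant in both libraries (above), and their part in the level of Eif2ak1 was not tested. The others stood close together: Eif2ak2, activated by double-stranded RNA, had 9.15 and 8.66 TPM. Eif2ak3, the kinase of the endoplasmic reticulum, had 8.45 and 7.43 TPM. Eif2ak4, activated by uncharged tRNA, had 7.64 and 7.41 TPM. The ranges of Eif2ak3 and Eif2ak4 over the libraries overlapped, and that of Eif2ak2 lay above both. This order counts all annotated transcripts. Coding ones held 42.8% and 51.5% of the TPM of Eif2ak2. For Eif2ak3 they held 92.4% and 98.1%, and for Eif2ak4 97.5% and 100%. In expected counts Eif2ak2 was the lowest, at 484 and 475. Eif2ak3 had 860 and 707 counts and Eif2ak4 862 and 823.

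eIF3 is the large scaffold that joins the small subunit to the cap complex. All 14 of its genes were detected, with medians of 119.8 and 120.5 TPM in replicates 1 and 2 and a summed level of 1571 ± 18.9 TPM (SD, n = 2). Their levels ran from 11.7 TPM (Eif3j1) to 198.5 TPM (Eif3k) as means of both libraries. Of the 14, 11 had at least 90 TPM in both libraries. Eif3k was highest at 198.7 and 198.2 TPM.

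Next came Eif3g at 169 and 184 TPM, Eif3m at 162 and 166 TPM and Eif3h at 145 and 144 TPM. Those under 90 TPM were Eif3f, Eif3j2 and Eif3j1. Eif3f stood at 40.8 and 39.2 TPM, a log2 ratio of 2.31 ± 0.04 under Eif3k. Eif3j1 had 12.3 and 11.0 TPM and Eif3j2 24.6 and 26.3 TPM, but their reads are shared as described above. The authors' posterior SD of the count, a measure of uncertain read assignment, was 2.4% and 2.7% of the count for Eif3j1 and 2.4% in both libraries for Eif3j2.

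The eIF4F group binds the cap and unwinds the leader of the message, and 11 of its 12 genes were detected. Eif4g2, which binds eIF3 and eIF4A but not the cap-binding protein, was the highest at 667 and 675 TPM. The cap-dependent scaffold Eif4g1 stood at 132 and 139.5 TPM and its paralog Eif4g3 at 25.6 and 29.0 TPM. Eif4g2 was thus above Eif4g1 in both libraries, with a log2 ratio of Eif4g1 to Eif4g2 of -2.30 ± 0.04, and Eif4g1 was above Eif4g3 by 2.30 ± 0.07 (SD, n = 2).

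The helicase genes followed a different order from the scaffold genes. Eif4a1, the main helicase of the cap complex, stood at 329 and 315 TPM and Eif4a2 at 152 and 162 TPM, a log2 ratio of 1.03 ± 0.11 (SD, n = 2). This ratio counts all annotated transcripts. Coding ones held 95.2% and 93.6% of the TPM of Eif4a1, but 27.2% and 27.6% of that of Eif4a2. Eif4a3, which belongs to the exon junction complex rather than to the cap complex, stood at 212 and 215 TPM, between the other two. The helicase cofactors Eif4h and Eif4b had 267 TPM in both libraries and 62.8 and 62.2 TPM.

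The cap-binding proteins were led by Eif4e at 191 and 202 TPM. Eif4e2, a cap-binding repressor, had 110.6 and 113 TPM and Eif4e3, a distant relative, had 4.41 and 4.42 TPM. Eif4e exceeded Eif4e2 by a log2 ratio of 0.81 ± 0.03 and Eif4e3 by 5.32 ± 0.05 (SD, n = 2). The order of Eif4e and Eif4e2 turned on the older M4 annotation, where their log2 ratio was -0.38.

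Eif4e1b, a relative known from oocytes, was listed at 0 counts in both libraries. The 95% Clopper-Pearson interval of its share of gene counts reached 1.08e-05% in replicate 1 and 1.17e-05% in replicate 2. None of the 4 germ-cell markers was detected in both libraries, but none was at 0 in both. Ddx4 came nearest the threshold, at 0.89 and 1.14 TPM from 60 and 73 counts.

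The 4E-binding proteins hold eIF4E away from eIF4G when growth signals are low. Eif4ebp1 stood at 219.5 and 220.3 TPM, Eif4ebp2 at 41.2 and 38.7 TPM and Eif4ebp3 at 2.63 and 2.37 TPM. The order was the same in both libraries, with log2 ratios of 2.45 ± 0.07 (Eif4ebp1 to Eif4ebp2) and 3.75 ± 0.02 (Eif4ebp2 to Eif4ebp3). Together the 3 messages were 1.38 and 1.30 times the level of Eif4e on M21, and 3.57 and 3.48 times its level on M4, where Eif4e was lower (below). These ratios count all annotated transcripts, coding or not. On M21 a processed transcript, Eif4ebp1-202, held 70.4% and 68.9% of the TPM of Eif4ebp1. Coding transcripts held the other 29.6% and 31.1%, against 94.4% and 94.3% of the TPM of Eif4e. Of the TPM of Eif4e, 34.8% and 35.3% lay on Eif4e-206, which has 237 annotated coding bases against 651 in Eif4e-201. By expected counts, coding transcripts held 54.1% of Eif4ebp1 and 99.1% of Eif4e, as means of both libraries.

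Eif4enif1, which carries eIF4E into the nucleus, had 29.3 and 31.1 TPM. Eif4ebp3 overlaps a read-through gene model on the same strand, and its posterior SD was 15.0% and 16.0% of its count, the largest among the members. Its level rests on 41.8 and 34.1 expected counts.

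The factors that join the ribosomal subunits and assist the first bonds were led by Eif5a, at 1007 and 1018 TPM, rank 84 of the autosomal protein-coding genes. eIF5A is known for the modified lysine hypusine, and the genes of the enzymes that make it were also expressed: Dhps had 47.7 and 39.2 TPM and Dohh 52.4 and 52.0 TPM. The paralog Eif5a2 had 12.6 and 13.7 TPM, 1.23% and 1.33% of the eIF5A messages. The log2 ratio of Eif5a to Eif5a2 was 6.22 ± 0.07 (SD, n = 2).

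Eif5, the GTPase-activating partner of eIF2, stood at 399 and 397 TPM on M21 but far lower on M4 (below). Eif6, which keeps large subunits apart from small ones, had 90.8 and 85.9 TPM. Eif5b, the subunit-joining GTPase, was low for the group at 17.8 and 19 TPM.

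Elongation messages were dominated by one gene. Eef1a1 stood at 2170.5 TPM (replicate 1) and 2244 TPM (replicate 2), rank 24 of the autosomal protein-coding genes, and made up 20.1% and 20.6% of the summed level of all members. Eef1a2, the adult muscle and neuron form, stood at 6.02 and 6.12 TPM from 295 and 271 expected counts. It was detected in both libraries and made up 0.277% and 0.272% of the eEF1A messages.

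The log2 ratio of Eef1a1 to Eef1a2 was 8.38 in replicate 1 and 8.41 in replicate 2 (8.39 ± 0.02, SD, n = 2), and on mean TPM Eef1a1 was 364 times as abundant. It was the widest of the 12 pairs compared. With 2 libraries the smallest two-sided exact sign-permutation p is 0.5, so the ratio is given without a test. Neuron markers, which could mark another source of Eef1a2, were detected for 5 of 8 genes at summed levels of 19.7 and 17.3 TPM, with none at 0 in both libraries. Skeletal muscle markers were detected for 2 of 6 genes at 12.3 and 10.6 TPM, again with none at 0 in both. Their part in the level of Eef1a2 was not tested.

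**Figure D2:**
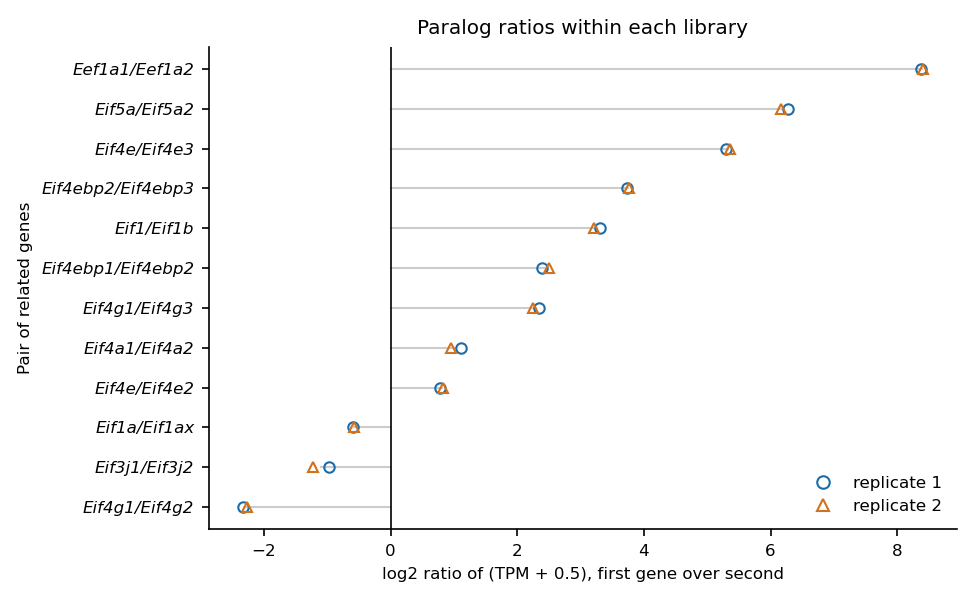
Log2 ratio of TPM plus 0.5 within each library for 12 pairs of related genes, first gene over second, with circles for replicate 1 and triangles for replicate 2. Eef1a1/Eef1a2 is widest at 8.39, 9 pairs lie above 0 and Eif1a/Eif1ax, Eif3j1/Eif3j2 and Eif4g1/Eif4g2 lie below 0.

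The exchange factor eEF1B reloads eEF1A with GTP, and its subunit genes stood close together in total level over all annotated transcripts. Eef1d, the delta subunit, had 244 and 247 TPM, Eef1b2, the beta subunit, 233 and 227 TPM, and Eef1g, the gamma subunit, 219.97 and 219.5 TPM. Their order was the same in both libraries on M21, though Eef1d and Eef1b2 differed by a log2 ratio of only 0.10 ± 0.04. On M4, Eef1b2 was above Eef1d in replicate 1 (243 against 237 TPM) and below it in replicate 2 (237 against 240.4 TPM), so these genes have no order that holds on both annotations. On M21, coding transcripts held 56.1% and 58.5% of the TPM of Eef1b2. For Eef1d they held 93.9% and 96.1%, and for Eef1g 94.1% and 98.3%. Eef1e1, a scaffold protein of the tRNA synthetase complex that is named with eEF1, stood apart at 28.8 and 28.9 TPM.

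Eef1a1 was 9.87 and 10.2 times the level of Eef1g, and 6.80 and 6.66 times that of Eef2. Eef2, which moves the ribosome by a codon, had 319 and 337 TPM. Eef2k, the kinase that inactivates eEF2, had 11.7 and 13.3 TPM, so Eef2 was 27.3 and 25.3 times as high.

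Methyltransferases that modify the elongation factors were low. Eef1akmt1 was highest at 44.2 and 47.0 TPM and Eef1akmt2 followed at 29.7 and 35.8 TPM. Eef2kmt and Eef1akmt4 had 15.3 and 13.4 TPM and 15.8 and 12.7 TPM. Eef1akmt3 was under the threshold at 0.11 and 0.14 TPM, from 7 counts in replicate 1 and 8 in replicate 2.

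The lists outside the rule were expressed as broadly. Of 36 other genes of the translation pathway, 35 could be matched by symbol and all 35 were detected, at a median of 44.5 and 39.2 TPM. Tpt1, a growth-related protein that binds eEF1A and its exchange factor, was the highest of them at 721 and 722 TPM, and Gspt2, a release factor paralog, the lowest at 3.54 and 3.98 TPM. All 6 mitochondrial factor genes were detected too, between Mtif3 at 13.4 and 18.2 TPM and Tufm at 130.9 and 130.5 TPM.

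The libraries were compared gene by gene with an exact conditional binomial test on TMM-scaled counts with Benjamini-Hochberg adjustment over 17970 genes. To be called, a gene needed a log2 ratio (replicate 2 over replicate 1) of at least 1 in size and an adjusted p under 0.05. None of the 63 members tested was called, where 1.44% of all genes tested were. At an unadjusted p under 0.05, 18 members passed (21.8% of all genes tested), and by edgeR's exact test with a common dispersion 2 did (7.97%), with 0 after adjustment (1.34%). That dispersion was fitted on the same 2 libraries, so edgeR's test can only show genes that differed more than is typical between them.

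Only counting error enters the exact binomial test, which compares the libraries and no conditions. The median absolute log2 ratio was 0.04 over the 63 members and 0.08 over 13947 autosomal protein-coding genes tested. With a summed count of at least 1000 it was 0.04 over 58 members and 0.05 over 8657 genes. None of the 35 pathway genes or 6 mitochondrial factor genes was called, while all 9 hepatocyte markers were called lower in replicate 2.

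Without the fold threshold, 10 members passed (9.64% of all genes tested). In replicate 2, 6 of them were higher (4.63% of all genes tested) and 4 lower (5.01%). All 10 differences were small, and only those of Eef1akmt4 and Eif2b3 reached 0.25 on the log2 scale (2 members, with 4.17% of all genes tested past that threshold). Eif2b3 had 852 and 658 counts in replicates 1 and 2, a log2 ratio of -0.25 (exact 95% interval -0.40 to -0.10; adjusted p = 0.0139, exact binomial test). Eef1akmt4 had 403 and 294 counts, a log2 ratio of -0.33 (-0.56 to -0.11; adjusted p = 0.0331, exact binomial test).

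The other 2 lower genes, both with more counts, were Eif4a1 at -0.10 (adjusted p = 6.63e-06, exact binomial test) and Eif1 at -0.07 (adjusted p = 0.000729). The members higher in replicate 2 were Eif4g3 (0.14), Eif3g (0.10), Eif4a2 (0.08), Eif3b (0.07), Eif4g1 (0.06) and Eef2 (0.06). Of the paralogous helicases, Eif4a1 was thus lower and Eif4a2 higher in replicate 2. Some of these small ratios depended on the scaling. With libraries scaled by ERCC counts, which lowered the median of all genes by 0.016 on the log2 scale, 7 members passed (10.3% of all genes tested). Of these, 2 were higher in replicate 2 (3.58% of all genes tested) and 5 lower (6.73%). Under that scaling Eif3b, Eif3g, Eif4a2 and Eif4g1 no longer passed, and Eif4g2 passed as lower in replicate 2.

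Of the other large ratios, Eef1akmt2 stood at 0.20, Eif4ebp3 at -0.18 (-0.88 to 0.50) and Eif2ak3 at -0.16, and none of these passed adjustment. Eef1a2 stood at -0.002 (-0.25 to 0.24) and Eef1a1 at 0.02 (0.002 to 0.03).

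**Figure D3:**
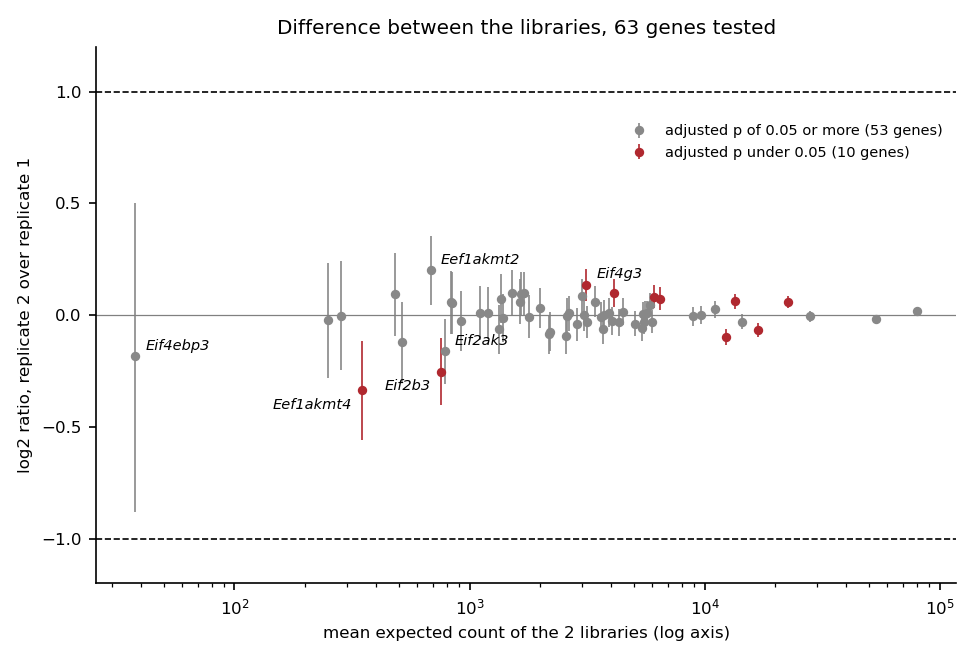
Log2 ratio of replicate 2 over replicate 1 with its exact 95% interval against the mean expected count of the libraries (log axis) for the 63 members tested, red where the adjusted p is under 0.05 and grey elsewhere. All members lie between -0.33 and 0.20, inside the dashed lines at -1 and 1 that mark the fold threshold.

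The level of a few members depended on the annotation. Between the M21 table and the older M4 table, 56 of the 63 members with a level in both differed by at most 0.25 in log2 TPM, with a median of -0.06. Expected counts moved even less, and for 61 of the 63 they changed by at most 5%. Eef1akmt4 is in the M21 table only.

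Eif5 moved most, from 155 and 158 TPM on M4 to 399 and 397 TPM on M21, a log2 difference of 1.35, while its count was 6.75% higher on M21. Eif4e moved from 88.4 and 90.9 TPM to 191 and 202 TPM (1.13), while its count was 1.52% higher. The mean length over which its reads could fall, its effective length, was 1253 bases in replicate 1 on M21 and 2783 bases on M4.

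Eif2s1 and Eif3c also stood higher on M21, by 0.75 and 0.59, and Eif2b5 by 0.29. Those that stood lower on M21 were Eef1e1 (28.8 and 28.9 TPM against 50.2 and 51.6 TPM on M4, a log2 difference of -0.82), Eif4ebp1 (-0.30) and Eif1b (-0.23). In all 8 genes the effective length moved the opposite way to the TPM. Eif4ebp2 was the exception in counts, which were 33.4% higher on M21, while its TPM differed by -0.12.

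**Figure D4:**
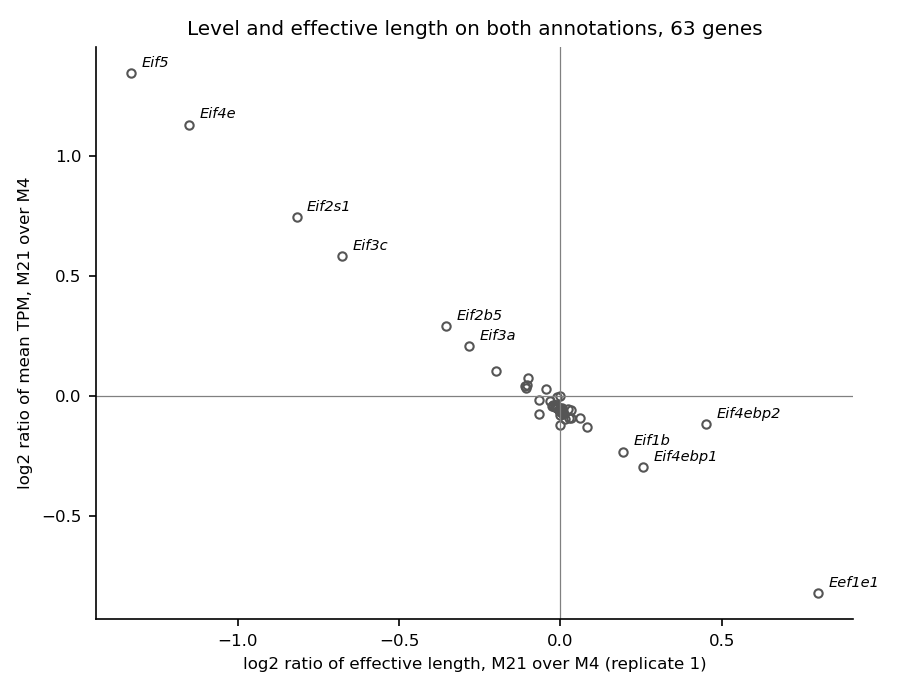
Log2 ratio of mean TPM on M21 over M4 against the log2 ratio of effective length in replicate 1, 1 point for each of 63 members. Points fall along a descending line from Eif5 (1.35 in TPM) to Eef1e1 (-0.82), and Eif4ebp2, whose count was 33.4% higher on M21, lies above it.

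The transcript tables show which annotated forms carried these levels. The 65 genes have 419 transcripts in the M21 table. The most abundant transcript of a gene held a median of 83.6% and 85.3% of its TPM in replicates 1 and 2, over the 64 members with a level, against 72.1% over 12017 detected autosomal protein-coding genes. It held at least 90% in both libraries for 27 members and at least 50% for 52.

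The lowest shares were those of Eif2b4 (25.1% and 22.7%), Eif4a2 (26.0% and 26.6%) and Eif4g3 (23.7% and 33.9%). Eef1d (35.7% and 28.3%), Eif4e (34.8% and 35.3%), Eif4enif1 (34.5% and 35.4%), Eif4g1 (39.3% and 33.7%) and Eif5 (44.4% and 43.2%) completed the lowest 8. In 60 of the 64 members the most abundant transcript was the same in both libraries. For the others, Eif2ak2, Eif2b4, Eif4e and Eif4g3, it is given by the mean of both.

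For 6 members the transcript with the most TPM was not the one with the most counts: Eif1, Eif2ak2, Eif4e, Eif4ebp1, Eif4ebp2 and Eif5. In each the leader by TPM was a shorter model. Eif4e-206, of 526 bases, held 34.8% and 35.3% of the TPM of Eif4e, whereas Eif4e-201, of 4991 bases, held 64.5% and 63.3% of its counts. Eif5-214, of 690 bases, held 44.4% and 43.2% of the TPM of Eif5, and Eif5-202, of 4050 bases, held 43.1% and 45.0% of its counts. The TPM of these genes therefore rests largely on short models, which for Eif4e are absent from the M4 table, where a single transcript held 100% of its level.

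Of the 64 most abundant transcripts, 61 were annotated as protein coding. The exceptions were a retained-intron model for Eif2ak2 and processed transcripts for Eif1 and Eif4ebp1. For Eif2ak2 the lead turned between the libraries: the retained-intron model of 704 bases held 55.0% (replicate 1) and 44.3% (replicate 2) of its TPM, and the coding transcript of 4313 bases held 42.8% and 51.5%. Eif4a2 had the lowest share of coding transcripts, at 27.2% and 27.6% of TPM. Models marked for nonsense-mediated decay, the pathway that removes messages with a premature stop, held 41.6% of its TPM in both libraries and retained-intron models 31.3% and 30.8%.

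Decay models also held much of Eif2a (41.7% and 38.3%) and Eef1b2 (40.2% and 35.7%). Retained-intron models held over 10% of TPM in 12 of the 63 detected members (19.0%), against 27.1% of detected autosomal protein-coding genes. The median share of retained-intron models was 1.67% over the members and 1.59% over those genes. The highest such share after Eif2ak2 was that of Eef1e1, at 42.8% and 40.7%.

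**Figure D5:**
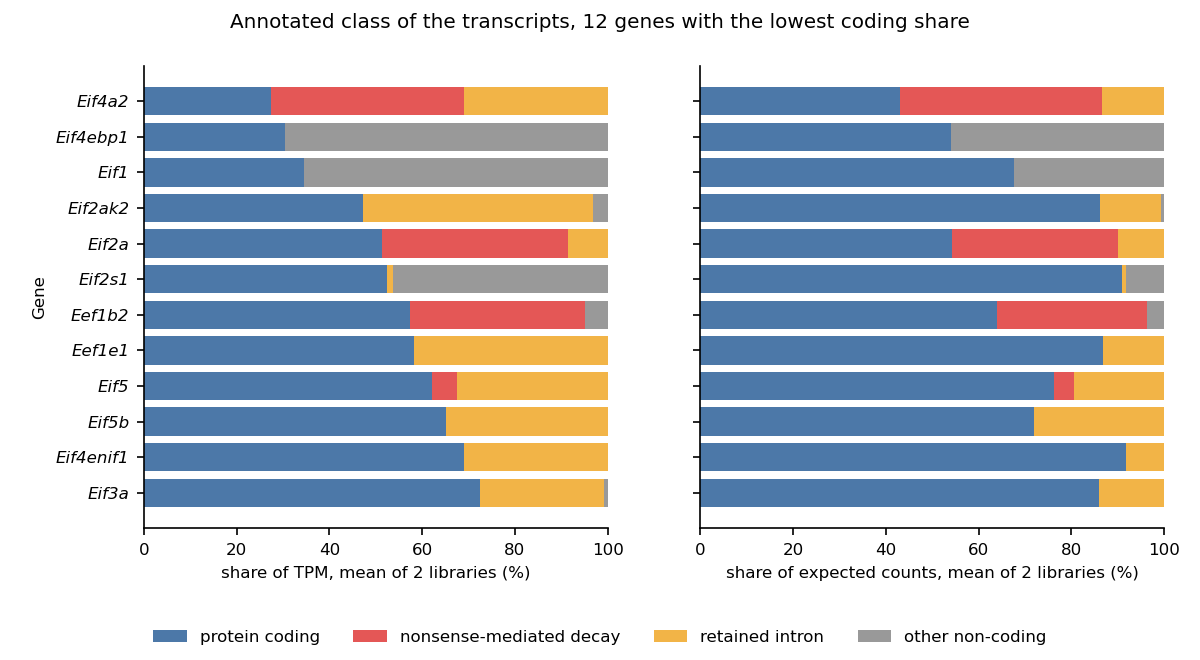
Share of TPM (left) and of expected counts (right), as means of both libraries in percent, held by transcripts of each annotated class, for the 12 members at 5 TPM or more with the lowest coding share of TPM. Coding transcripts hold more of the counts than of the TPM in all 12, for example 67.7% of counts and 34.5% of TPM for Eif1.

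Eif4h, the helicase cofactor, was split between a pair of coding forms. Eif4h-201, which lacks an internal exon of 60 bases, held 70.0% and 66.8% of its TPM, and Eif4h-205, which contains it, held 25.9% and 28.5%. The exon lies inside the coding sequence at chr5:134624441-134624500 on the minus strand of mm10 and is printed in sense orientation.
Eif4h cassette exon: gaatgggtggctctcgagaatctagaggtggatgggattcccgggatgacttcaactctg

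The members lie on all 19 autosomes, with a few neighbours. Eif2b5, Eef1akmt4 and Eif4g1 follow each other on chromosome 16, with gaps of 102.3 kb and 49.3 kb, and Eif4a1 and Eif5a lie 244.3 kb apart on chromosome 11. Of the 65 members, 9 (13.8%) host an annotated small nucleolar RNA inside the gene, against 244 of 20807 autosomal protein-coding genes (1.17%). The hosts were Eif2ak3, Eif3a, Eif4a1, Eif4a2, Eif4g1, Eif4g2, Eif5, Eef1b2 and Eef2, and Eif4a2 held the most, with 5.

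Another protein-coding, antisense or long non-coding gene overlapped 21 members on the opposite strand and 5 on the same strand, not counting the small nucleolar RNA genes above or other gene classes. Whether counting used strand is not stated in the labels or headers, so reads of overlapping genes cannot be told apart. The most abundant partners were those of Eif1ad (Banf1, 321 and 311 TPM, over 428 bases) and Eef1b2 (Ndufs1, 265 and 255 TPM, over 9 bases). Other overlaps of the gene spans were far longer. Drg1 (124 and 133 TPM) overlapped Eif4enif1 over 42197 bases on the opposite strand. On the same strand, Gm20696 (2.02 and 2.11 TPM) overlapped Eif4e3 over 41637 bases and Fgfr2 (26.7 and 26.2 TPM) overlapped Eef1akmt2 over 25217 bases. Of the 10 pseudogenes that the rule excludes, Eif4a-ps4 was highest, at 5.63 and 8.57 TPM.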

How the data were processed

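For each of 2 libraries (polyA RNA of embryonic mouse heart) the authors provided gene-level and transcript-level values on annotations M21 and M4 of mm10, per their accompanying text. Expected counts, as deposited, divide reads that map to several places among features; tests used them rounded to whole numbers. The deposited TPM and posterior mean TPM are scaled by effective length and by the table's total, spike-ins included, per the file headers and column sums. The deposited posterior SD of a count, treated as a score, measures uncertain assignment. The deposited transcript percent (IsoPct) was not used, and shares were computed from the TPM and counts. Which aligner and counting tool were used, and whether strand was, is not given in the sources used here.

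Symbols, biotypes and coordinates came from GENCODE M21. Members and gene lists were chosen with earlier results of these data known. A pair ratio is log2 of TPM plus 0.5, and every mean ± SD is over 2 libraries. The libraries were compared by a two-sided exact binomial test conditional on the summed count (scipy 1.17.1) on counts scaled by TMM (edgeR 4.0.16), for genes of summed count 20 or more, with Benjamini-Hochberg adjustment. It was tried on simulated counts that held counting error only, so its behaviour under variation beyond counting error was not tested. With 1 group there is no contrast for a quasi-likelihood test, and it was not run. edgeR's exact test used the common dispersion of an intercept-only fit, and DESeq2 1.42.0 gave alternative size factors. Total expected counts were 35520161 and 32577548, of which rows that name no gene or spike-in held 0.000115% and 0.000117%. Genes were named by a rule: the 20 highest members, the extremes of each group, all members of the small groups and of the pairs, the 5 largest ratios with any that passed, and the 8 most extreme by annotation, by transcript share and by posterior SD. Levels of the members were also taken under other annotations, thresholds, pseudocounts and scalings.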

Additional observations from a re-analysis of the deposited data

How the results depend on the processing

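The count of detected members stayed between 61 and 63 under all 8 alternatives run. The mean of the libraries' median levels, 62.7 TPM, was 64.7 on M4, 61.2 with posterior mean TPM, 80.9 with TPM rescaled over autosomal protein-coding genes and 71.8 over detected members only, and lay between 62.7 and 62.8 with either library left out. The summed level, 10853 TPM, was 10591 with posterior mean TPM and 13999 when rescaled, and lay between 10792 and 10914 with either library left out. The log2 ratio of Eef1a1 to Eef1a2 was 8.42 on M4, 8.42 when rescaled, 8.48 and 8.29 with pseudocounts of 0.1 and 1, and 8.14 on counts not divided by length, against 8.39. Of the 11 other pairs, 8 had the first gene higher, and 7 on M4, where Eif4e/Eif4e2 reversed to -0.38. Eif4e/Eif4e3, 5.32, was 4.14 on M4 and 4.50 on counts not divided by length. On such counts 5 other pairs also moved by over 1.5 times: Eif5a/Eif5a2 was 4.22 against 6.22, Eif4ebp2/Eif4ebp3 5.84 against 3.75, Eif4ebp1/Eif4ebp2 1.32 against 2.45, Eif3j1/Eif3j2 -0.03 against -1.09 and Eif1/Eif1b 2.67 against 3.26. The median share of the most abundant transcript, 84.4%, was 95.4% on M4 and 92.6% on expected counts. Of members called between the libraries there were 0 under every scaling and filter run and on M4, 10 with no fold threshold and 2 at an absolute log2 ratio of 0.25. Levels of 5 members moved by over 1.5 times on M4, and none did so with posterior mean TPM, when rescaled or with either library left out. No paired analysis was possible because there is 1 group, and the comparison of the libraries needs both, so neither could be left out there. Depth limits Eef1akmt3, Eif4e1b and Eif4ebp3, and 2 libraries limit every SD.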
